A study of Mus musculus with 6 samples.

Results

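Cathepsins are the main proteases of the lysosome, and cystatin C (Cst3) is a secreted inhibitor that blocks the cysteine cathepsins once they leave it. The genes described here were chosen by symbol, with earlier results of these data known: 9 cathepsin genes (Ctsa, Ctsb, Ctsc, Ctsd, Ctsf, Ctsh, Ctsl, Ctss and Ctsz) and Cst3, 10 of the 17469 genes listed. All 10 had enough counts to be tested, among 12701 genes that did. RNA-seq was run on tdTomato+ bone marrow stromal cells (BMSCs, grown from the marrow cells that adhere to the dish), which the study regards as osteoblast (OB) progenitors, with 3 libraries of each of 2 genotypes. Control mice carried OCN-Cre, which puts Cre recombinase under the osteocalcin promoter of the OB lineage, and Ai9, an allele that turns on tdTomato where Cre has acted. TgAPPsweOCN;Ai9 mice carried both alleles and also human APPswe (amyloid precursor protein carrying the Swedish mutation) under the CAG promoter, behind a stop cassette that the same Cre removes. All mice were 6 months old and untreated. The number of mice behind each library was not given in the sources used here, so p-values measure only the spread between these libraries.

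Cathepsins are made as inactive precursors, carried to lysosomes largely by mannose 6-phosphate receptors, and activated there by acid and by each other. They degrade proteins taken up from outside or delivered by autophagy, and in antigen-presenting cells they trim the proteins and the invariant chain that occupy MHC class II molecules. Macrophages and osteoclasts are rich in them. Ctsb, Ctsc, Ctsf, Ctsh, Ctsl, Ctss and Ctsz encode cysteine proteases, which cystatins inhibit, whereas Ctsd encodes an aspartic protease and Ctsa a serine carboxypeptidase.

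Libraries held 19340810 to 19801060 estimated counts in control and 21677461 to 22037840 in TgAPPsweOCN;Ai9, and 3 counts, taken as the floor of detection, equal a CPM (counts relative to the library total) of 0.136 to 0.155, which covers counting error only. The table's single entry for App was higher in all TgAPPsweOCN;Ai9 libraries (log2 fold change 0.45, standard error (SE) 0.0509, edgeR adjusted p = 7.87e-05), and it does not separate the human transgene from the mouse gene. Markers did not match the OB label in either genotype. Summed FPKM (fragments scaled by gene length and by all mapped fragments) of 15 myeloid marker genes was 24906 to 26645 in control, against 1134 to 1220 for 16 stromal and osteoblast-lineage genes. Lyz2 alone held 8888 to 9263 of the myeloid sum. Spp1, a gene that macrophages and osteoclasts also express, made up 870 to 1000.3 of the stromal sum, and the osteocalcin gene Bglap lay at 0.35 to 1.25. In TgAPPsweOCN;Ai9 libraries the myeloid sum was 19832 to 23516 and the stromal sum 655 to 923. The cells are therefore called sorted tdTomato+ cells below.

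Promoter sequences bear on these genes because the transcription factors TFEB and TFE3, which drive many lysosomal genes, bind an E-box with the core CACGTG. RefSeq windows of 250 bases before the annotated start (build GRCm38.p6) were at hand for 8 of the 10 genes, all but Ctsb and Ctsh. The starts used for Ctsl and for the later of the 2 windows of Ctsa lie inside the annotated gene, so all 250 bases of those windows, and 61 of the Ctsc window, are sequence within the gene and not before its first base. The core, which reads the same on both strands, was in a window of Ctsa, Ctsd, Ctsf and Ctsl and in none of Cst3, Ctsc, Ctss and Ctsz. Of all 32851 windows 6.02% held it, and of the 12923 windows of tested genes 8.20%. The form TCACGTG, searched on both strands and containing the core, was in Ctsa and Ctsd, against 3.13% of all windows and 4.81% of the windows of tested genes. Each match follows in 30 bases of the gene's strand, the core in capitals, to show the bases around it.
Ctsa, chr2:164833743-164833772, plus strand, core from 12 bases before the later of its 2 starts, within the gene: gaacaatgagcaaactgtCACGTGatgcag
Ctsd, chr7:142388048-142388077, minus strand, core from 245 bases before the start: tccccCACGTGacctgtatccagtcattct
Ctsd, chr7:142387908-142387937, minus strand, core from 98 bases before the start: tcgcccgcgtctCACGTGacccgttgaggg
Ctsf, chr19:4855074-4855103, plus strand, core from 79 bases before the start: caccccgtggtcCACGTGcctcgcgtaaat
Ctsl, chr13:64370739-64370768, minus strand, core from 236 bases before a start within the gene: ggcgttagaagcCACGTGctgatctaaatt
The window of Ctsz, the gene with the largest rise, is given whole as one without the core.
Ctsz, chr2:174439040-174439289, minus strand: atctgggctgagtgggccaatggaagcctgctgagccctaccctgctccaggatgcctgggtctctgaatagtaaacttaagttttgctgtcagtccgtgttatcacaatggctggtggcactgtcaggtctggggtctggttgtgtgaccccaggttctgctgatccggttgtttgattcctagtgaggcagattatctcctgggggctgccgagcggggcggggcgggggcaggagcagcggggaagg

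Most of the genes were lower in TgAPPsweOCN;Ai9 cells, but not all. Ctsa, Ctsb, Ctsd, Ctsf, Ctss and Cst3 fell, Ctsz and Ctsl rose, and Ctsc and Ctsh did not pass the test. Genes were compared with edgeR's quasi-likelihood test over all tested genes, and the p-value after Benjamini-Hochberg adjustment had to be 0.05 or less. By that rule 6 of the 10 genes were lower and 2 higher, where 31.5% of all tested genes were lower and 32.5% higher, 64% in all. With library size only (no TMM factors) 8 were lower and 2 higher, where 45.9% and 22.1% of all tested genes were. With the further requirement of a log2 fold change of at least 1, 0 genes were up-regulated and 0 down-regulated, by edgeR and by DESeq2, although 8 had an unadjusted p under 0.05. Among all tested genes 8.9% were up- and 9.2% down-regulated, a balance that became 6.66% and 13.6% with library size only and 6.39% and 11.9% in limma on log2(FPKM + 0.1). As a log2 fold change, the median was -0.52 over the 10 genes and -0.02 over every gene tested. In a bulk library fewer cells of a type and less RNA per cell cannot be told apart.

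FPKM and the fold changes from edgeR are on different scales. Log2 fold changes printed beside FPKM come from edgeR with TMM factors unless another setting is named, and are not ratios of the FPKM. FPKM divides by all mapped fragments, whereas edgeR also applied TMM factors of 1.07 to 1.08 in control and 0.910 to 0.944 in TgAPPsweOCN;Ai9 libraries. Without these factors the median over all tested genes, as a log2 fold change, was lower by 0.215, at -0.23. Calls of genes near no change therefore depend on the choice. The plot of FPKM by library shows the levels behind each comparison.

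**Figure D1:**
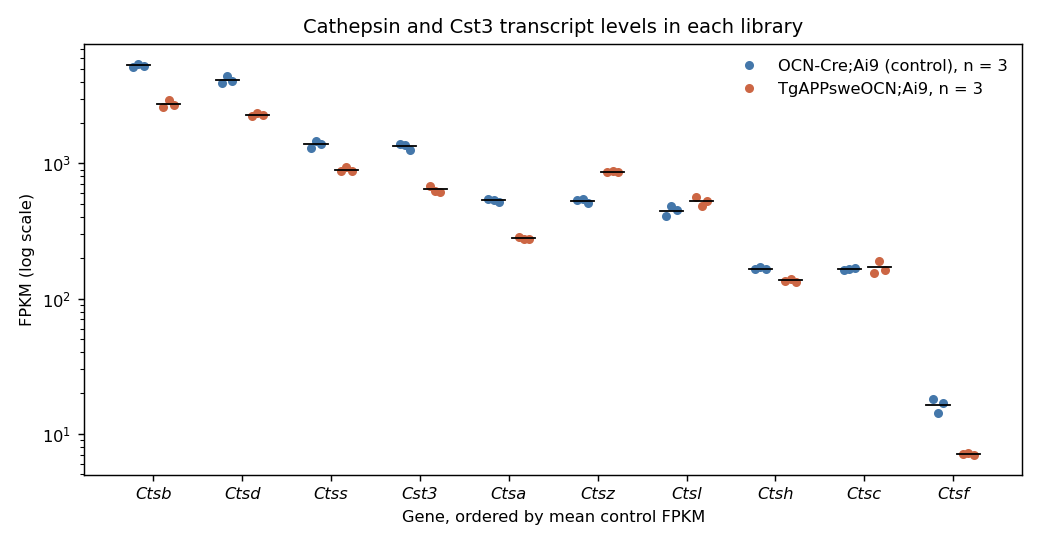
FPKM on a log scale in each library (points) with the mean of the 3 libraries of a genotype (bars), for the 9 cathepsin genes and Cst3 in order of the control mean. Points of the genotypes overlap for Ctsc alone, and Ctsz and Ctsl have the TgAPPsweOCN;Ai9 points above the control points.

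In control cells the order by level per length was Ctsb, Ctsd, Ctss, Cst3, Ctsa, Ctsz, Ctsl, Ctsh, Ctsc and Ctsf. Neighbours whose libraries overlapped in FPKM were Ctss and Cst3, Ctsa and Ctsz, and Ctsh and Ctsc. In TgAPPsweOCN;Ai9 cells Ctsz moved up beside Ctss, which it overlapped, and the order went on with Cst3, Ctsl, Ctsa, Ctsc, Ctsh and Ctsf without overlap between neighbours. Ctsb and Ctsd led in both genotypes.

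Ctsd (Entrez identifier 13033, chr7:142375910-142387827) encodes cathepsin D, the main aspartic protease of lysosomes. Its FPKM was 3897, 4429 and 4086 in control and 2237, 2375 and 2261 in TgAPPsweOCN;Ai9 libraries. Every TgAPPsweOCN;Ai9 library was far below every control library. The mean was 4137 ± 269 (SD, n = 3) in control and 2291 ± 73.8 in TgAPPsweOCN;Ai9 cells, and the log2 fold change was -0.64 (SE 0.0659, edgeR adjusted p = 4.83e-05). Its share of all estimated counts was 0.781% in control and 0.432% in TgAPPsweOCN;Ai9 cells.

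Ctsb (13030, chr14:63122462-63145923), the cysteine protease cathepsin B, acts as an endopeptidase and removes dipeptides from protein ends. FPKM was 5169.5, 5471 and 5254 in control and 2614, 2927 and 2709.97 in TgAPPsweOCN;Ai9 libraries. The groups were well apart. Rank 6 by FPKM in every control library became 11, 10 and 11 in the TgAPPsweOCN;Ai9 libraries. Mean FPKM was 5298 ± 155 (n = 3) against 2750.3 ± 160.1, with a log2 fold change of -0.70 (SE 0.0663, edgeR adjusted p = 2.81e-05). Estimated counts of Ctsb, Ctsa and Ctsl were fractional in all 6 libraries, so some reads of these 3 genes were divided between genes.

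Ctss (13040, chr3:95526786-95556405) encodes cathepsin S, which stays active at neutral pH and cleaves the invariant chain in antigen-presenting cells. The control libraries held 1309, 1470.2 and 1381 FPKM of it and the TgAPPsweOCN;Ai9 libraries 883, 939 and 871. No value was shared between the ranges. The mean went from 1387 ± 80.6 (n = 3) to 898 ± 36.6, with a log2 fold change of -0.41 (SE 0.0631, edgeR adjusted p = 0.000519).

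Ctsl (13039, chr13:64361890-64370772), cathepsin L, is a potent endopeptidase, and with Ctsz it was a cysteine cathepsin that rose. Control libraries had 408, 483 and 450.2 FPKM, and TgAPPsweOCN;Ai9 libraries had 559.7, 484.5 and 525. The highest control library and the lowest TgAPPsweOCN;Ai9 library, both number 2, were almost level at 483.4 and 484.5. The mean was 447 ± 37.7 (n = 3) against 523 ± 37.6, and the log2 fold change was 0.44 (SE 0.0870, edgeR adjusted p = 0.00210). The size of this rise depended on the scaling: it was 0.22 with library size only, and its adjusted p was 0.0712 when limma was run on log2(FPKM + 1) for all genes without a filter.

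Ctsf (56464, chr19:4855165-4860918), cathepsin F, is a further cysteine protease that can cleave the invariant chain in macrophages. It was the least abundant of the 10 genes, with 673, 539 and 621 estimated counts in control and 297, 301 and 287 in TgAPPsweOCN;Ai9 libraries. FPKM was 18.0, 14.3 and 16.8 against 7.06, 7.21 and 6.94. The TgAPPsweOCN;Ai9 values lay close together and below all the control values. The mean fell from 16.4 ± 1.90 (n = 3) to 7.07 ± 0.135. With TMM factors the log2 fold change from edgeR was -0.99 (SE 0.0950, edgeR adjusted p = 3.04e-05). This was the largest fall of the 10 genes and fell just short of the fold change threshold. It was down-regulated with library size only, in limma on FPKM, with at least 10 counts in every library, without control replicate 2 (-1.09) and without TgAPPsweOCN replicate 1 (-1.01).

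The exopeptidase gene that rose was Ctsz (64138, chr2:174427494-174439039). Its product cathepsin Z, also called cathepsin X, removes single residues from the carboxyl end of proteins. FPKM was 539.8, 544.5 and 508.7 in control and 866.0, 881.9 and 862.4 in TgAPPsweOCN;Ai9 libraries. All libraries of a genotype were close together, with a wide gap between the genotypes. The mean rose from 531 ± 19.4 (n = 3) to 870.1 ± 10.4. From edgeR the log2 fold change was 0.93 with TMM factors (SE 0.0558, edgeR adjusted p = 2.28e-06) and 0.71 with library size only. Over 15 alternative settings the log2 fold change ran from 0.71 to 0.94, and it passed the adjusted p in each.

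Ctsh (13036, chr9:90054267-90076095), cathepsin H, is chiefly an aminopeptidase. FPKM was 164, 170.6 and 166 in control and 134, 140.5 and 134 in TgAPPsweOCN;Ai9 libraries, lower in each of the latter (167 ± 3.32 and 136 ± 3.83, n = 3). On the TMM-scaled CPM the gap narrowed, with 237.5, 245.6 and 238.0 against 228.9, 231.5 and 223.1. Its log2 fold change was -0.08 (SE 0.05001, edgeR adjusted p = 0.207). With library size only it was -0.29 (adjusted p = 0.000974), so the call depended on the scaling.

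Ctsc (13032, chr7:88278024-88315861), cathepsin C or dipeptidyl peptidase 1, activates the serine proteases stored in granules of neutrophils and cytotoxic cells. FPKM was 163, 164.5 and 168.5 in control and 156, 191 and 164 in TgAPPsweOCN;Ai9 libraries. These ranges overlapped, as TgAPPsweOCN;Ai9 libraries 1 and 2 lay below and above all the control libraries. The mean was 165 ± 3.06 (n = 3) and 170.2 ± 18.5 (exact permutation test on FPKM, two-sided p = 0.9). From edgeR the log2 fold change was 0.07 (SE 0.0554, adjusted p = 0.299), and it was -0.15 with library size only (adjusted p = 0.0443).

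Counts and FPKM of Ctsc did not move together. Their ratio stands for the gene length used in the conversion and, once scaled by the other genes of a library, is the same in each where that length is fixed. For Ctsc, relative to the control mean, it was 1.04, 0.971 and 0.986 in control and 0.938, 0.821 and 0.897 in TgAPPsweOCN;Ai9 libraries. Every TgAPPsweOCN;Ai9 value was below every control value. This range of 22.2% was exceeded by 0.389% of the 3603 genes with at least 1000 counts. Ctsb had a range of 4.96%, and the other 8 genes had ranges of 0.624% to 1.04%, where the median gene had 0.843%. A given number of Ctsc counts thus stood for more FPKM in TgAPPsweOCN;Ai9 libraries. Isoforms were not measured separately in the tables used.

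**Figure D2:**
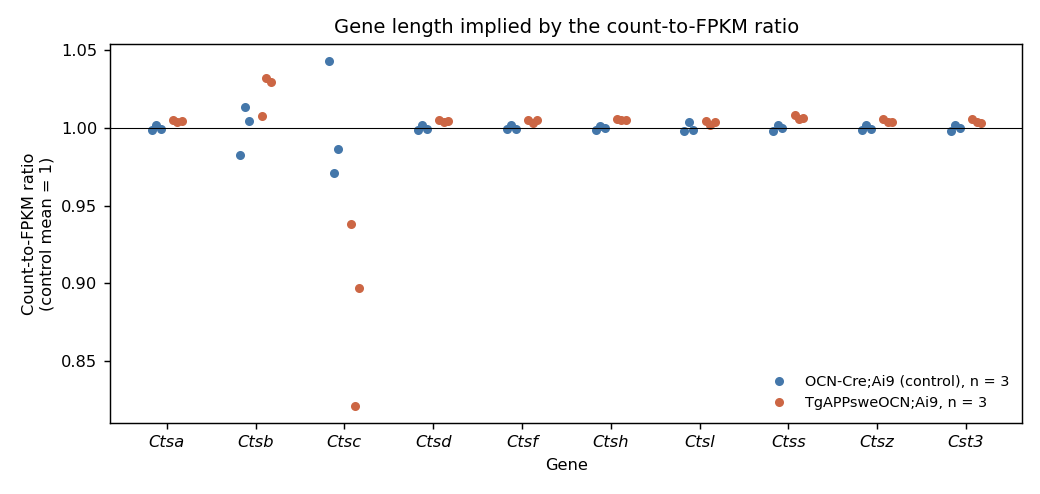
Ratio of estimated counts to FPKM for each gene, scaled by library and set to 1 for the control mean, with 1 point per library. Ctsc drops to between 0.821 and 0.938 in the TgAPPsweOCN;Ai9 libraries, and Ctsb spreads over 4.96%, while the other genes stay near 1.

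Ctsa (19025, chr2:164832872-164841032) encodes cathepsin A, a serine carboxypeptidase that also protects lysosomal β-galactosidase and neuraminidase in a complex. FPKM was 546.9, 535.5 and 520.5 in control and 286, 277 and 274 in TgAPPsweOCN;Ai9 libraries. The spread within each genotype was small beside the gap. The mean fell from 534 ± 13.2 (n = 3) to 279 ± 6.504, and the log2 fold change was -0.72 (SE 0.0579, edgeR adjusted p = 1.12e-05). Of its partners in the complex, Neu1 had a log2 fold change of 0.27 (adjusted p = 0.00169) and Glb1 of -0.10 (adjusted p = 0.583).

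Cst3 (13010, chr2:148871722-148875512), the inhibitor, had FPKM of 1393, 1371 and 1262 in control and 681, 622 and 619 in TgAPPsweOCN;Ai9 libraries. All control libraries lay well above all TgAPPsweOCN;Ai9 libraries. Its rank by FPKM was 25 to 28 in control and 88 to 96 in TgAPPsweOCN;Ai9 libraries. From a mean of 1342 ± 69.9 (n = 3) it fell to 641 ± 35.1. With TMM factors the log2 fold change from edgeR was -0.85 (SE 0.0726, edgeR adjusted p = 1.60e-05). With library size only the log2 fold change was -1.07, past the fold change threshold.

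**Figure D3:**
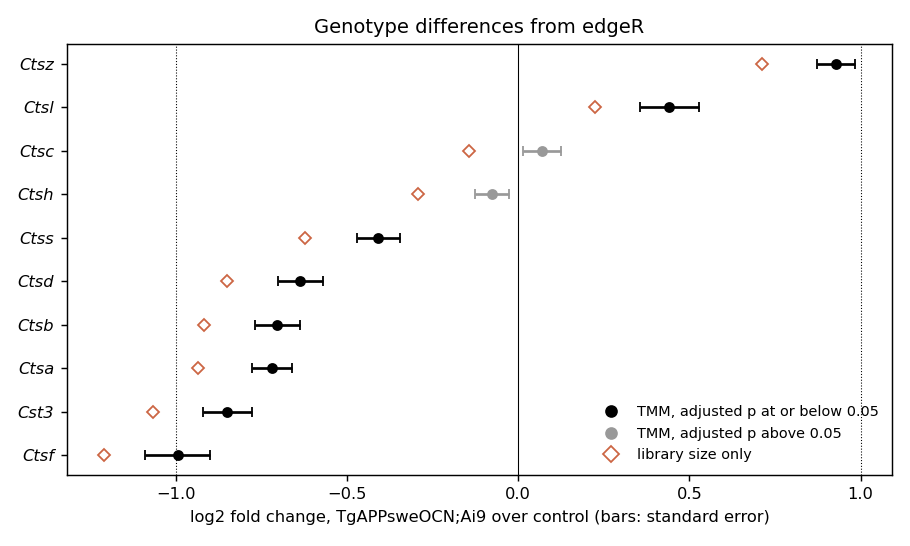
Log2 fold change of each gene from edgeR with TMM factors (filled points, bars show the standard error; grey where the adjusted p was above 0.05) and with library size only (open diamonds). Diamonds lie to the left by about the shift of all genes, 0.215, which takes Ctsf and Cst3 past the dotted line at -1 and turns Ctsc below 0.

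On the TMM-scaled CPM the genotypes did not overlap for 9 of the 10 genes, where 69.7% of the 12699 genes compared did not overlap. An exact permutation test on FPKM gave a two-sided p of 0.1 for each of the 9, the smallest that 3 libraries against 3 allow. Calls by the adjusted p held for Ctsa, Ctsb, Ctsd, Ctsf, Ctss, Cst3 and Ctsz in all 15 alternative fits.

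Shares of each gene in the sum of the 9 do not depend on the scaling between libraries. The sum itself, in FPKM or as a part of all FPKM, had no TMM factors applied. The 9 cathepsin genes summed to 12216, 13283 and 12551 FPKM in control and 7743, 8224 and 7808 in TgAPPsweOCN;Ai9 libraries, a mean of 2.53% and 1.56% of all FPKM. Ctsb and Ctsd made up less of the sum in TgAPPsweOCN;Ai9 cells, and Ctsz and Ctsl more. The share of Ctsb was 41.8% ± 0.569 (SD, n = 3) in control and 34.7% ± 0.913 in TgAPPsweOCN;Ai9 cells, and that of Ctsd was 32.6% ± 0.721 and 28.9% ± 0.0401. Ctsz held 4.19% ± 0.199 in control and 10.98% ± 0.236 in TgAPPsweOCN;Ai9 cells, and Ctsl held 3.52% ± 0.159 and 6.62% ± 0.676. Thus the Ctsz share was 2.62 times and the Ctsl share 1.88 times that in control. The smaller shares of Ctsc (1.30% and 2.14%) and Ctsh (1.32% and 1.72%) were higher in TgAPPsweOCN;Ai9 cells, and those of Ctsa (4.22% and 3.53%) and Ctsf (0.130% and 0.0892%) lower. Ctss kept close to its share, at 10.9% ± 0.186 and 11.3% ± 0.150, and with Ctsb left out of the sum its difference turned from 0.395 to -1.43 percentage points. None of the 9 shares overlapped between the genotypes (two-sided exact permutation p = 0.1 each, as low as 3 against 3 allows).

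**Figure D4:**
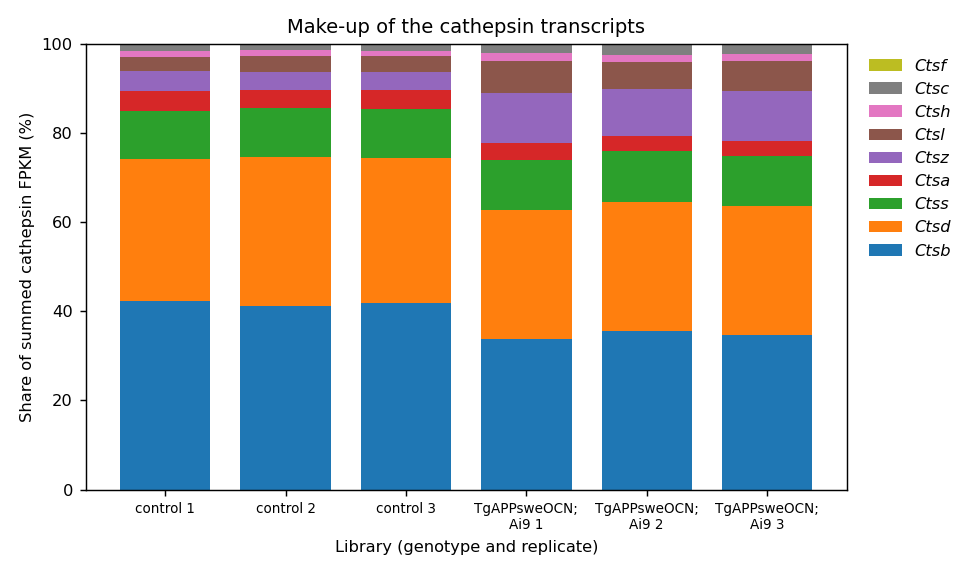
Share of each cathepsin gene in the summed FPKM of the 9, per library, as stacked bars that add up to 100%. Ctsb and Ctsd shrink from control to TgAPPsweOCN;Ai9 libraries, while Ctsz (at most 4.42% in control and at least 10.7% in TgAPPsweOCN;Ai9 libraries) and Ctsl widen. Ctsf is too thin to be seen.

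Relative to the summed enzymes it blocks, the inhibitor was lower in TgAPPsweOCN;Ai9 cells. Cst3 amounted to 17.9%, 16.5% and 15.9% of the summed FPKM of the 7 cysteine cathepsin genes in control, and to 13.1%, 11.2% and 11.7% in TgAPPsweOCN;Ai9 libraries. The lowest control value was above the highest TgAPPsweOCN;Ai9 value. On the log2 scale the ratio was -2.58 ± 0.0891 (n = 3) and -3.06 ± 0.115, a difference of -0.48 (two-sided exact permutation p = 0.1, again as low as possible). Without Ctsb in the sum the difference was -1.01. The 7 genes of the sum did not move alike. In mean FPKM, the TgAPPsweOCN;Ai9 value over control was 0.478 for Cst3, close to 0.519 for Ctsb and above 0.432 for Ctsf. It was 0.647 for Ctss, 0.816 for Ctsh, 1.03 for Ctsc, 1.17 for Ctsl and 1.64 for Ctsz. These are ratios of transcripts, and protein or enzyme activity was not measured in these libraries.

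Genes around the cathepsins were described by lists of the pathway, each by its counts, which stand beside the 32.5% of all tested genes that were higher and the 31.5% that were lower. Of 14 other cathepsin genes, 7 were listed and 3 tested, of which 2 were lower and 1 higher. Ctse, an aspartic protease of endosomes, fell from 33.2 ± 4.07 FPKM (n = 3) to 6.72 ± 0.677. Its log2 fold change from edgeR was -2.09 (edgeR adjusted p = 1.44e-06). Ctsk, the collagen-degrading cathepsin of osteoclasts, was low, at 7.31, 7.58 and 5.94 FPKM in control and 4.52, 5.23 and 4.27 in TgAPPsweOCN;Ai9 libraries (log2 fold change -0.36, adjusted p = 0.0372). Ctso had a log2 fold change of 0.32 (adjusted p = 0.00296), and 0.11 with library size only, where it no longer passed. The median of the 3 was -0.36.

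Of 22 other cystatins and cysteine protease inhibitors, 14 were listed and 6 tested, with 2 higher, 2 lower and 2 not past the test and a median log2 fold change of -0.04, so the share that passed was near the 64% of all tested genes. Cstb, the cystatin that works inside cells, rose while Cst3 fell. It had 504, 529 and 506 FPKM in control and 676, 685 and 588 in TgAPPsweOCN;Ai9 libraries, with a log2 fold change of 0.56 (edgeR adjusted p = 0.000186). Ctla2a and Ctla2b, which resemble the propeptides of cysteine cathepsins and inhibit them, were down-regulated, with log2 fold changes of -1.51 and -1.31. Estimated counts of Ctla2a were fractional in all 6 libraries. Kng1, a kininogen with cystatin domains, was up-regulated (1.34) from under 2 FPKM in every library, with fractional estimated counts in 5 of 6. It was past the threshold in 13 of 15 alternatives and at 0.63 in limma on log2(FPKM + 1).

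All 9 genes described from the list of other lysosomal peptidases and proteins that act with cathepsins were tested, and 6 were lower, 2 higher and 1, Glb1, did not pass, where 31.5% of all tested genes were lower and 32.5% higher. The median log2 fold change was -0.49. Lgmn, the asparaginyl endopeptidase legumain, which processes cathepsins B, H and L, rose. Its FPKM was 801, 839 and 800.3 in control and 988, 1293 and 1113 in TgAPPsweOCN;Ai9 libraries (log2 fold change 0.70, SE 0.0866, adjusted p = 0.000147). The list's lowered genes included Psap, the precursor of the saposins, which cathepsin D cleaves. Psap fell from 2626 ± 60.1 FPKM (n = 3) to 1356 ± 48.2 (log2 fold change -0.73, adjusted p = 8.68e-06). Prcp (-0.52), Tpp1 (-0.50), Dpp7 (-0.49) and Scpep1 (-0.34) fell without reaching -1, and Napsa was down-regulated (-1.61). Neu1 rose by 0.27 but did not pass with library size only.

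Delivery to lysosomes was represented by 10 genes, all tested, with 1 higher, 6 lower (7 with library size only, where 45.9% of all tested genes were lower) and 3 not past the test (Igf2r, Gnptab and Gga1) and a median log2 fold change of -0.16. As many as 7 of 10 passed, near the 64% of all tested genes. M6pr, the small mannose 6-phosphate receptor, rose from 193 ± 7.54 FPKM (n = 3) to 277 ± 24.7 (log2 fold change 0.74, adjusted p = 7.61e-05). The alternative sorting receptors were down-regulated. Sort1, or sortilin, had 12.6, 15.4 and 15.6 FPKM in control and 3.27, 3.64 and 3.40 in TgAPPsweOCN;Ai9 libraries (-1.86, adjusted p = 7.30e-07). Scarb2, the receptor that carries β-glucocerebrosidase, had a log2 fold change of -1.005 (adjusted p = 9.70e-07) and was past the fold change threshold in 10 of 15 alternatives.

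Of the 4 transcription factors of the TFEB family, Tfeb and Tfec were lower, Tfe3 was higher and Mitf did not pass, with a median of -0.53 (with library size only, 3 lower and 0 higher). Tfeb had 32.5, 33.1 and 29.9 FPKM in control and 14.5, 13.2 and 13.6 in TgAPPsweOCN;Ai9 libraries (-0.98, edgeR adjusted p = 7.73e-06, and -1.19 with library size only), and Tfec was down-regulated (-1.21). The rise of Tfe3 (0.30, adjusted p = 0.00166) was 0.09 with library size only, where it did not pass.

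Substrates and partners of cathepsins S and C made up the last list, with 11 of 12 genes listed, 9 tested, 5 lower and 0 higher and a median log2 fold change of -0.94. The 5 of 9 that passed stand against 64% of all tested genes, and the 5 lower against 31.5%. Cd74, the invariant chain that cathepsin S cleaves, had a log2 fold change of -2.55 beside the -0.41 of Ctss. Its FPKM was 959, 1268 and 1095 in control and 216, 108 and 161 in TgAPPsweOCN;Ai9 libraries (SE 0.241, edgeR adjusted p = 2.88e-05). Ciita, the activator of MHC class II genes, was down-regulated (-3.36), as were the peptide exchange genes H2-DMb2 (-2.76) and H2-DMa (-1.79), whereas H2-DMb1 had -0.94 (-1.15 with library size only). Counts of the H2-DM genes were fractional in 3 to 6 libraries. Elane, Prtn3 and Mpo, proteins of neutrophil granules, had adjusted p of 0.200 to 0.990, and H2-Ob had 0.0671.

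**Figure D5:**
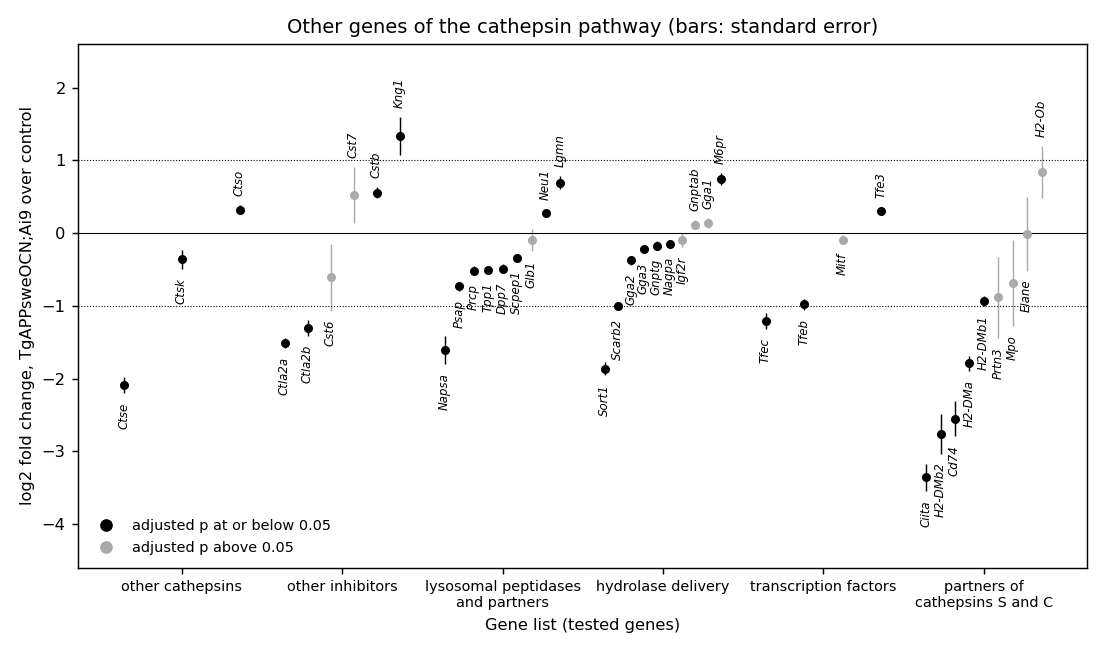
Log2 fold changes from edgeR (points, with standard error bars) of the tested genes on 6 lists around the cathepsins, black where the adjusted p was at or below 0.05. Lgmn, M6pr and Cstb lie above 0 and Ctse, Sort1, Ctla2a and Ciita below -1.

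Marker genes of other cell types are given beside the 64% of all tested genes that passed the adjusted p (32.5% higher and 31.5% lower), and their part in these results was not tested. All 15 myeloid marker genes were tested, with 6 higher and 6 lower (7 with library size only), and their summed FPKM was 24906 to 26645 in control and 19832 to 23516 in TgAPPsweOCN;Ai9 libraries. The macrophage genes Adgre1 (log2 fold change 1.89) and Aif1 (2.04) and the broader myeloid genes Itgam (1.26) and Fcer1g (1.11, and 0.90 with library size only) were up-regulated while Mrc1 (-2.38), Csf1r (-1.49) and Cd68 (-1.26) were down-regulated. Osteoclast markers summed to 78.1 to 100.3 FPKM in control and 165 to 273 in TgAPPsweOCN;Ai9 libraries. Without Mmp9, left out after its values were seen, the sums overlapped, at 75.3 to 98.99 and 95.6 to 105 FPKM. Of the 8 tested of 10, 4 were higher, all of them up-regulated (Ocstamp, Mmp9, Acp5 and Tnfrsf11a), and 3 were lower (4 with library size only), of which Atp6v0d2 was down-regulated and Nfatc1 (-0.23, adjusted p = 0.0121) and Ctsk (-0.36) were not. Ocstamp had 0, 0 and 1 estimated counts in control and 30, 31 and 54 in TgAPPsweOCN;Ai9 libraries. It was past the fold change threshold in 12 of 14 alternatives, with a lowest log2 fold change of 0.92. The defining marker Calcr was listed at 0 in 5 of 6 libraries. Stromal and osteoblast-lineage genes summed to 655 to 923 FPKM in TgAPPsweOCN;Ai9 libraries, and of the 15 tested of 16, 4 were higher and 4 lower (6 with library size only). Among these the fibroblast matrix genes Dcn and Lum were up-regulated. Dcn had 13, 22 and 13 estimated counts in control and 51, 406 and 250 in TgAPPsweOCN;Ai9 libraries (log2 fold change 3.92, SE 0.715, edgeR adjusted p = 0.00137). Lum had 0, 1 and 0 against 28, 35 and 38 (edgeR adjusted p = 2.66e-05). The call of Lum held in 12 of 14 alternatives, and its lowest log2 fold change was 0.80. Lymphocyte genes were at a summed 0.06 to 0.22 FPKM, endothelial genes at 3.67 to 5.51 and neutrophil genes at 14.2 to 58.1 across all libraries. Of the 8 neutrophil genes 1, Camp, was up-regulated (3.02, adjusted p = 0.00175), at 0.10 to 0.87 FPKM in control and 1.80 to 4.66 in TgAPPsweOCN;Ai9 libraries. Of the 3 endothelial genes tested, Pecam1 was up-regulated (1.03, adjusted p = 0.000116; 0.81 with library size only) and 1 was lower.

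The genes whose profiles over the 6 libraries lay nearest to the largest rise and the largest fall were found among 8937 genes with a mean of at least 10 CPM, by the distance between centred log2 CPM. Nearest to Ctsz were Vta1 (distance 0.0755, log2 fold change 0.91), Sh3bgrl3 (0.0765, 0.95) and Heatr3 (0.0873, 0.94). Nearest to Ctsf were H1f0 (0.150, -0.99), Leng8 (0.154, -0.96) and Ankzf1 (0.157, -0.88).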

How the data were processed

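Per the labels, RNA of sorted Ai9+ BMSCs was sequenced on the DNBSEQ-G400, and the submitters' processing notes name HISAT2 2.0.4, Bowtie2 2.2.5, RSEM 1.2.12, DESeq2 1.4.5 and build mm10. The authors deposited estimated counts, fractional for 13.3% to 14.4% of the genes in a library, and FPKM values of the same genes. A table of the authors' own fold changes and p-values was not used. Estimated counts were rounded and tested with edgeR 4.0.16 under R 4.3.3 (genes kept by filterByExpr, TMM factors, quasi-likelihood test, genotype only, without a replicate block) over all genes. The design had planned on raw counts. The standard error is the log2 fold change over the root of F. The biological coefficient of variation was 9.85%, and PC1 explained 84.0% of the variance. Shares and ratios used FPKM with exact permutation tests (scipy 1.17.1). Gene coordinates and promoter windows were taken from RefSeq tables of GRCm38.p6 by Entrez identifier.

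Genes and lists were chosen with earlier results of these data known. The 10 genes were all named. Of the lists, genes past the fold change threshold with the largest changes were named, at most 4 a list, with the 3 nearest profiles; the further genes of a list, past the threshold or not, were named after their values were seen. From the lists, 1 gene is not reported here and was left out of their counts. Alternatives were DESeq2 1.42.0, RLE size factors, library size only, no filter beyond 1 count, at least 10 counts in every library, a replicate block, limma 3.58.1 on log2(FPKM + 1) or log2(FPKM + 0.1) and without a filter, no fold change threshold, each library left out, counts in place of FPKM, and shares without Ctsb. The tests were checked on simulated data with few genes changed and no shift between the libraries, so that check does not cover the choice of scaling. Tables were handled in Python 3.11.15 with numpy 2.4.6 and pandas 2.3.3, and plots drawn with matplotlib 3.10.9.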

Additional observations from a re-analysis of the deposited data

How the results depend on the processing

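With the fold change threshold, 0 of the 10 genes were down-regulated, but 2 (Ctsf and Cst3) were with library size only and with limma on log2(FPKM + 1), on log2(FPKM + 0.1) and without a filter, where 13.6%, 6.65%, 11.9% and 4.85% of all genes tested were, and 1 (Ctsf) was when at least 10 counts were required in every library (8.29% of all genes). Leaving out each library gave 0 to 1. Without the fold change threshold 6 of the 10 were lower and 2 higher, and over all genes 4007 were lower and 4122 higher. All genes up-regulated numbered 1130 and fell to 593 in limma on log2(FPKM + 1) and 589 without a filter there. By the adjusted p alone, 1 gene in place of 2 was higher when limma was run on log2(FPKM + 1) without a filter, which lost Ctsl. The lower genes numbered 6 to 8 under the alternatives, the additions being Ctsh with library size only and the limma fits and Ctsc with library size only; in limma on log2(FPKM + 1) 45.1% of all tested genes were lower. Ctsc turned to -0.15 with library size only, and the Ctss share difference turned to -1.43 percentage points without Ctsb. Library size only and FPKM share the absence of TMM factors, and the median of all tested genes was lower with both. Ctsc, whose counts and FPKM did not move together, was at 0.04 in limma on log2(FPKM + 1) and on log2(FPKM + 0.1). Same-numbered libraries of the genotypes had correlations of deviations of 0.0127, 0.00664 and 0.141, so the numbers were not taken as pairs. With the replicate block 6 of the 10 genes were lower and 2 higher, 0 passed the fold change threshold, and 1115 genes in all were up- and 1147 down-regulated. Counts were ample for all 10 genes, the least being 287 for Ctsf.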
